A study of Caenorhabditis elegans with 2 samples.

Results

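The histone genes of Caenorhabditis elegans were taken as the 72 protein-coding genes whose name starts with his- in the Ensembl annotation of WBcel235, out of 19973 nuclear protein-coding genes. The measurement was chromatin immunoprecipitation followed by sequencing (ChIP-seq) of MAB-5 carrying enhanced green fluorescent protein (eGFP), in whole larvae of the second larval stage (L2) and of mixed sex. All animals were of strain OP27, which has the allele unc-119(ed3) on chromosome III and the insertion wgIs27 directed at mab-5. The sources used here do not name the promoter that drives the tagged protein, and whole animals give an average over all their cells. The 2 samples were biological replicates of 1 group, so no conditions could be compared. A control alignment entered the authors' peak calling and was not analysed here.

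MAB-5 is a Hox protein, a homeodomain transcription factor that patterns the posterior body and the migration of neuroblasts in the worm. Histones H2A, H2B, H3 and H4 form the core of the nucleosome, around which DNA is wrapped, and histone H1 binds the DNA between nucleosomes. Most core histone genes of the worm are short, lack introns and lie in clusters, where an H2A gene and an H2B gene, or an H3 gene and an H4 gene, often stand back to back and share the sequence between their starts. Such genes are known for expression in dividing cells, while replacement genes such as those for H3.3 are also used outside DNA replication.

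Peaks at histone genes fell in a minority of loci. Genes whose starts lay within 10000 bp of one another were joined, which gave 14 clusters holding 67 genes and 5 isolated genes. A gene was called bound where the summit of a peak of the authors' optimal list lay in its promoter window, which ran 2000 bp upstream and 500 bp downstream of its start. That list, made with the irreproducible discovery rate (IDR), a measure of how reproducibly peaks rank in replicates, held 2197 peaks, of which 2174 were nuclear. By this rule 14 of 72 histone genes were bound (19.4%, 95% Wilson interval 12.0 to 30.03%), against 9.59% of all protein-coding genes. They lay in 6 of the 19 loci, namely 4 clusters with 12 bound genes and the isolated genes his-72 and his-24. The strongest 2197 peaks of replicate 1 alone gave 13 genes, against 9.23% of all genes, and those of replicate 2 alone gave 14, against 9.37%. In all, 13 genes were bound in the IDR list and in each replicate alone, and the exception was his-41.

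The gene count rests on peaks that neighbours share. The 14 genes were reached by 10 peaks, of which 5 lay in the windows of more than 1 histone gene. When each peak was given only to the nearest start of a protein-coding gene, 7 histone genes (9.72%) had a peak, against 9.43% of all genes, while the number of loci was still 6. The map of gene starts and summits shows where the peaks fell.

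**Figure D1:**
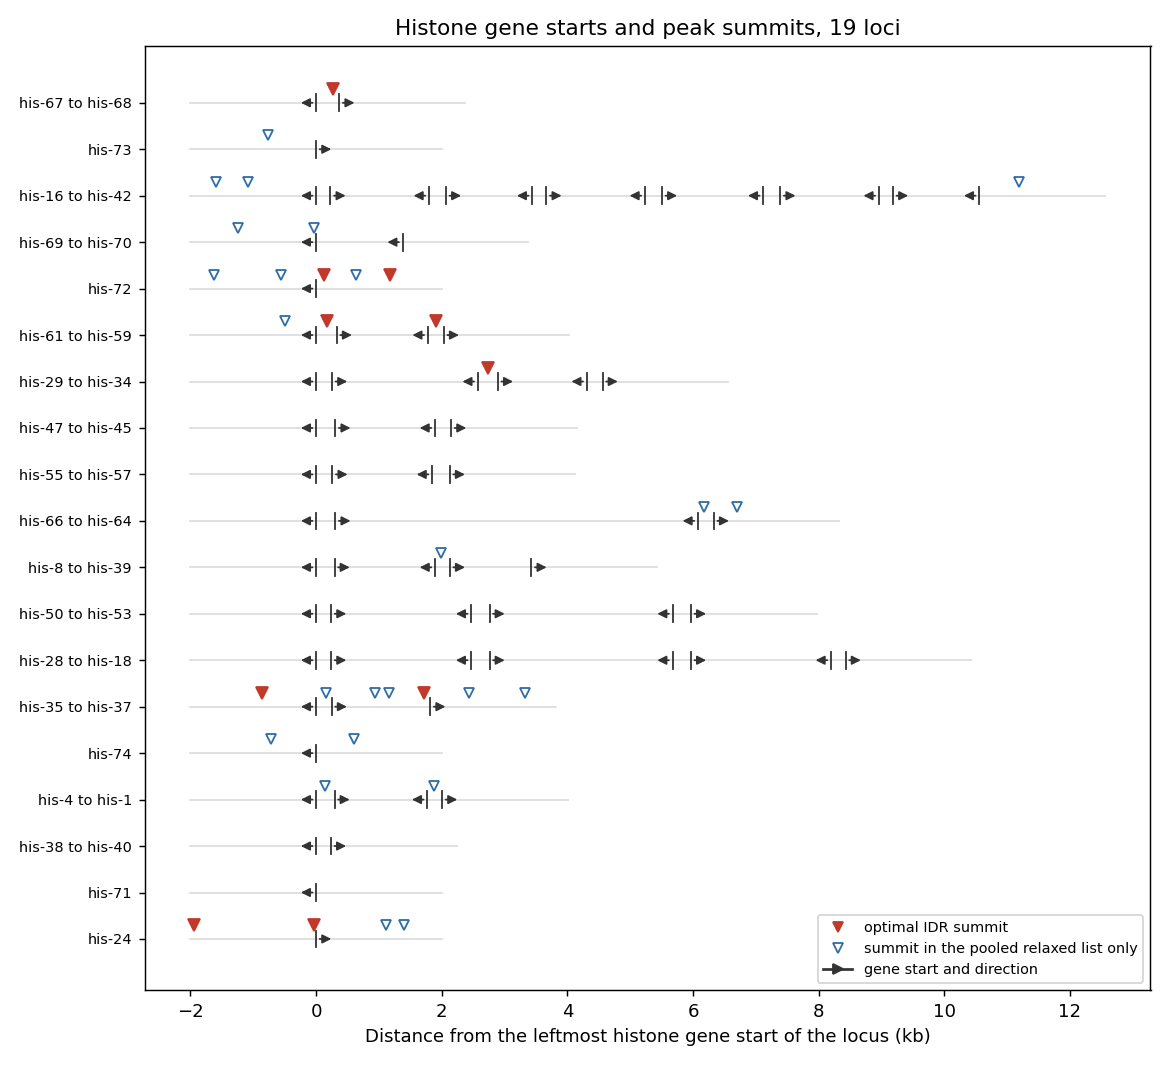
Each row is 1 of the 19 histone loci, the x axis is the distance in kb from its leftmost histone gene start, bars with arrows are gene starts and their direction, filled triangles are optimal IDR summits and open triangles are summits found only in the pooled relaxed list. Filled triangles stand at 6 loci, and the long clusters from his-50 to his-53 and from his-28 to his-18 hold no triangle of either kind.

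Every histone gene could also be looked up in the relaxed lists of peaks and background, which hold 30000 peaks each for the pooled data and for each replicate. A pooled relaxed summit lay in 29 of 72 histone windows (40.3%, interval 29.7 to 51.8%), against 51.8% of all genes. Histone genes thus stood above all genes in the IDR list and below them in the relaxed list, where the upper bound of the interval reached the share of all genes. Of the 58 unbound histone genes, 15 had a relaxed summit, with signals of 5.97 to 18.4 and ranks from 4388 to 24637, and 43 had none. Signal is the authors' score for a peak, on a scale that the sources used here do not give, and for a pooled peak it is 1 value with no replicate error.

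The cluster his-61 to his-59 on chromosome IV, which holds 1 gene of each core histone, was the only cluster of 4 genes in which each gene was bound. The genes his-61 (H2A, 7485834 to 7486217, minus strand) and his-62 (H2B, 7486545 to 7486916, plus strand) stand back to back, as do his-60 (H4, 7487681 to 7487992, minus strand) and his-59 (H3, 7488249 to 7488659, plus strand). One peak lay between the starts of each pair. The peak at his-61 and his-62 spanned 7486216 to 7486559, with a signal of 58.0 and rank 647 of the IDR list, and ranked 698 in replicate 1 and 712 in replicate 2. The peak at his-60 and his-59 spanned 7487957 to 7488300, with a signal of 48.6 and rank 919, and ranked 876 and 959 in replicates 1 and 2. Both replicates thus placed both peaks among their 1000 strongest. The summits lay 171 bp upstream of his-61, 157 bp upstream of his-62, 137 bp upstream of his-60 and 120 bp upstream of his-59. Both his-61 and his-59 also had the other pair's summit in their windows, at 1912 and 1861 bp upstream.

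The next cluster on chromosome IV, from his-29 to his-34, has 6 genes in 3 back-to-back pairs, and only the middle pair had a peak between its starts. This peak, at 8333978 to 8334321, lay 167 bp upstream of his-31 (H4, 8333672 to 8333983, minus strand) and 155 bp upstream of his-32 (H3, 8334305 to 8334715, plus strand). Its signal was 54.0 at rank 737, and it ranked 1882 in replicate 1 and 635 in replicate 2. The H2B gene his-34 (8335972 to 8336340, plus strand) counted as bound only through the same peak, 1822 bp upstream of its start. The pairs on either side, his-29 with his-30 and his-33 with his-34, have the same sequence between their starts as each other, and neither had a summit there in any list.

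The sequences at these peaks are shown because 5 words were searched in them, each on both strands, namely TGATNNAT (a composite of a Hox and a PBC-class site), TAATTA (a homeodomain core), TATAAA (the TATA box), GAGAGA and TGTGTCCC. The last word was added after the sequences had been read. All bases are from the NCBI RefSeq copy of WBcel235, which is ce11, plus strand, and reach 80 bp to each side of the summit. Capitals mark a match to any of the words on either strand.
his-61 and his-62, chrIV:7486308-7486468: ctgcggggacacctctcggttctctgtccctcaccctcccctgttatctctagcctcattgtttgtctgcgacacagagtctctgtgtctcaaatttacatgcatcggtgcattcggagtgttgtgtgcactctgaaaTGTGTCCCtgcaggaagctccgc
his-60 and his-59, chrIV:7488049-7488209: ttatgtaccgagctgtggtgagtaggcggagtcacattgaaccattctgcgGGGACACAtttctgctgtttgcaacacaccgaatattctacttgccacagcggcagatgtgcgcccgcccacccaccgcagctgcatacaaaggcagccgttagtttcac
his-31 and his-32, chrIV:8334070-8334230: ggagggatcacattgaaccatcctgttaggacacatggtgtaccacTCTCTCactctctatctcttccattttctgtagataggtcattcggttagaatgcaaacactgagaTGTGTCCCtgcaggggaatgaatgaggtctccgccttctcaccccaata
TGTGTCCC, or GGGACACA where it reads on the minus strand, stood in each of these 3 stretches.

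Of the peaks at histone genes, the one with the highest signal lay on chromosome V between his-41 and his-37. It spanned 9546939 to 9547112, only 174 bp, against a median width of 344 bp over the 10 peaks and over all nuclear IDR peaks. Its signal was 116 at rank 135, and it ranked 183 in replicate 1 and 105 in replicate 2. The summit lay 100 bp upstream of his-37 (H4, 9547105 to 9547607, plus strand). It also lay 1717 bp upstream of his-35 (H2A, 9544659 to 9545288, minus strand). The H2B gene his-41 (9545536 to 9546264, plus strand) was bound through another peak, at 9544250 to 9544593, with its summit 1114 bp upstream of his-41 and on the far side of his-35. That summit lay 196 bp upstream of mdf-1, a spindle checkpoint gene and the nearest start, with a signal of 38.4 at rank 1439. It ranked 2759 in replicate 1 and 1000 in replicate 2. The interval that his-35 and his-41 share held only a relaxed summit, with a signal of 22.3 at rank 3344, and ranks of 2200 in replicate 1 and 8687 in replicate 2.

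The gene his-24, isolated and encoding a linker histone on chromosome X (14490094 to 14491119, plus strand), had a peak at its start and another far upstream. The near peak spanned 14489883 to 14490226 with its summit 39 bp upstream, a signal of 44.0, IDR rank 1118, and ranks of 1962 in replicate 1 and 983 in replicate 2. The far peak spanned 14487981 to 14488324 with its summit 1941 bp upstream and 1870 bp upstream of a tRNA gene. Its signal was 38.5 at rank 1435, and it ranked 4082 in replicate 1 and 948 in replicate 2. Replicate 1 thus held the far peak well below the strongest 2197. It was the only histone gene peak with a match to TGATNNAT within 100 bp of its summit.

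The gene his-72, isolated and encoding the replacement histone H3.3 on chromosome III (12367475 to 12369050, minus strand), had a pair of peaks upstream. The near one, at 12368997 to 12369340, had its summit 119 bp upstream, a signal of 38.7 at rank 1422, and ranks of 852 in replicate 1 and 1296 in replicate 2. The far one, at 12370062 to 12370405, lay 1184 bp upstream of his-72 but 222 bp upstream of rpt-6, a gene for a proteasome ATPase and the nearest start. Its signal was 46.5 at rank 1003, and it ranked 1481 in replicate 1 and 1056 in replicate 2. The stretches below, from the same source and strand as above and with the same words in capitals, allow these promoters to be set beside one another. That of his-24 ends at the base before the gene start.
his-35 and his-37, chrV:9546925-9547085: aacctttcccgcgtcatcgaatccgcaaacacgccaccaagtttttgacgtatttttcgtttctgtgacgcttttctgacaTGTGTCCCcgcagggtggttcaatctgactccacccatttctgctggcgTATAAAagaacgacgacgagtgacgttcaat
his-24 near peak, chrX:14489975-14490093: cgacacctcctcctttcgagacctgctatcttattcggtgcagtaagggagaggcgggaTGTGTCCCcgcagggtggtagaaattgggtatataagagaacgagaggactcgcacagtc
his-72 near peak, chrIII:12369089-12369249: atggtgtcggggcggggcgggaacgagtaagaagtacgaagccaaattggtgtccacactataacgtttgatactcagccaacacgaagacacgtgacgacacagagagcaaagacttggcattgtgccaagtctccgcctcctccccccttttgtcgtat
TGTGTCCC stood in the first and second of these, and none of the 5 words stood in that of his-72.

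The replicates placed most of these peaks high in their lists, which selection by IDR favours for any peak. In both replicates 8 of the 10 peaks (80%) stood among the strongest 2197, against 1388 of 2174 nuclear IDR peaks (63.8%). Their median rank was 1414.5 in replicate 1 and 953.5 in replicate 2, against 1148 and 1102 for all nuclear IDR peaks. Their median signal was 47.6, against 44.1. The exceptions were the peaks beside mdf-1 and far upstream of his-24, both lower in replicate 1. The summits of all 10 peaks were intergenic, against 69.96% of nuclear IDR peaks, which were not chosen for lying in a promoter window as these were. The peaks themselves could reach into a gene, as did the near peak of his-24 and the peak at his-60 and his-59.

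**Figure D2:**
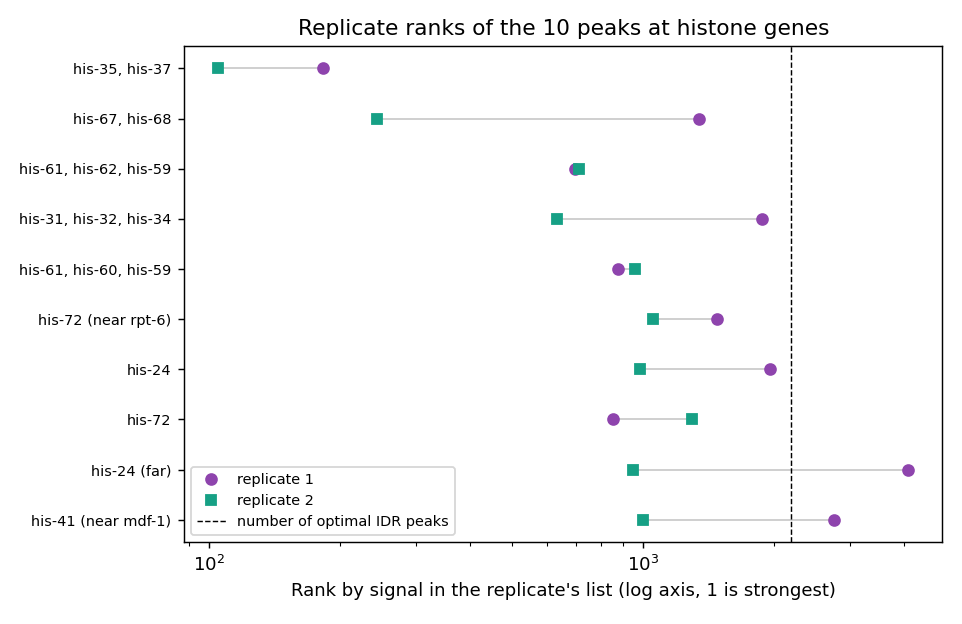
Rank by signal of each of the 10 peaks at histone genes in the relaxed list of replicate 1 (circles) and replicate 2 (squares), on a log axis where 1 is the strongest, with a dashed line at 2197, the size of the IDR list. Replicate 1 ranks the peak beside mdf-1 at 2759 and the far peak of his-24 at 4082, to the right of the line, and all other points lie to its left.

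The words differed in how often they occurred at histone gene peaks. TGATNNAT lay within 100 bp of the summit at 1 of 10 peaks (10%), against 21.8% of 2174 nuclear IDR peaks. TAATTA lay at 0 of 10, which allows a share of up to 30%, against 5.01%. TATAAA lay at 3 of 10 (30%), against 12.4%, and GAGAGA at 2 of 10 (20%), against 42.5%. TGTGTCCC lay at 6 of 10 (60%), against 22 of 2174 (1.01%), a count that includes the same 6. These were the peaks of his-67 with his-68, the 3 pairs of chromosome IV, his-37 and the near peak of his-24. A match is a description of the sequence, not a binding site, and TGTGTCCC was chosen from these same peaks.

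The word TGTGTCCC was not confined to bound genes. It stood within 300 bp upstream of 42 of 72 histone genes (58.3%), against 128 of all 19973 genes (0.641%), so that histone genes made up 42 of the 128. Of the 42, 11 were among the 14 bound genes and 31 among the 58 unbound ones. Back-to-back genes share the sequence between their starts, so a match there can count for both. As a whole, 16 of the intervals between back-to-back histone starts occur more than once in the genome. The 42 genes are thus not separate sites, and the word was chosen from peaks at histone genes. TATAAA stood within 300 bp upstream of 51 histone genes (70.8%), against 39.6% of all genes, among them 10 bound and 41 unbound genes. GAGAGA stood there at 33 histone genes (45.8%), against 21.6%. The other words were less frequent than at all genes, TGATNNAT with 7 (9.72%), against 23.5%, and TAATTA with 1 (1.39%), against 17.4%.

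The remaining bound pair was his-67 (H4, 9988452 to 9988763, minus strand) and his-68 (H2A, 9989132 to 9989515, plus strand) on chromosome I, the only back-to-back pair here that joins an H4 gene to an H2A gene. Their shared peak, at 9988854 to 9989197, had a signal of 73.4 at rank 384, and ranked 1348 in replicate 1 and 244 in replicate 2. Its summit lay 263 bp upstream of his-67 and 106 bp upstream of his-68.

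By histone class, bound genes were spread over all 4 core histones. Bound were 3 of 17 H2A genes (his-61, his-35 and his-68), 3 of 16 H2B genes (his-62, his-34 and his-41), 3 of 20 H3 genes (his-59, his-32 and his-72) and 4 of 16 H4 genes (his-60, his-31, his-37 and his-67), beside the 9.59% of all genes. The 16 H4 genes encode 1 protein through 12 different coding sequences, so the 4 bound H4 genes specify the same histone as the 12 unbound ones. Of the H3 replacement and variant genes, his-72 was bound, while his-69, his-70, his-71 and his-74 were not. The genes his-24, his-39 and his-73 carry no class in their RefSeq product name. The bound gene his-24 had at most 25.5% identity to a his- protein of a named class and was left out of these class counts. The gene his-39 is closest to H2B (97.0% identity) and his-73 to H3 (97.8%), both of these are short, and neither was bound.

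The loci without an IDR peak differed in what the relaxed list held. The longest, his-16 to his-42 on chromosome II, has 13 genes over 10.9 kb, and relaxed summits lay only in the windows of 2 genes at or next to its ends. That of his-42 (H3) had a signal of 18.4 at rank 4388, 642 bp upstream, and that of his-15 (H2B) a signal of 10.3, 1309 bp upstream. On chromosome V, his-4 and his-3 shared a relaxed summit with a signal of 13.5 at rank 6834, and ranks of 9445 and 9517 in replicates 1 and 2. The neighbouring pair, his-2 and his-1, had one with a signal of 7.73 at rank 16960. These stood well outside the IDR list, but between the starts of both pairs. The pair his-63 and his-64 on chromosome IV shared a summit with a signal of 8.81 at rank 13684, which ranked 7130 in replicate 2 and had no peak in the replicate 1 list. In the cluster his-8 to his-39 the summit between his-6 and his-5 had a signal of 6.29 at rank 22957.

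Of the isolated and variant genes without an IDR peak, his-74 (an H3 variant) had a relaxed summit with a signal of 7.33 at rank 18364, 599 bp upstream. The gene his-69 had one with a signal of 6.17 at rank 23537, 36 bp downstream of its start. For his-73 there was one with a signal of 5.97 at rank 24637, 758 bp upstream. The replicate 1 summit in this window, at rank 19894, lay elsewhere and further upstream, and replicate 2 had none. At his-70 there was none. The gene his-71, the other H3.3 gene of this list beside his-72, had no pooled summit and 1 in replicate 2 alone, at rank 20459. The pair his-38 and his-40 on chromosome X had no summit in any list. No relaxed summit was found either in the clusters his-47 to his-45 and his-55 to his-57 on chromosome IV, with 4 genes each, or in his-50 to his-53 and his-28 to his-18 on chromosome V, with 6 and 8 genes.

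Much of the sequence at histone genes occurs more than once in the genome, which bears on how reads can be placed. Each promoter window was given a single-copy share, the percentage of its 36-base words found once in the genome, counting both strands. The median share was 51.7% for histone genes and 100% for all genes. Under 50% lay 34 of 72 histone genes (47.2%), against 3.00% of all genes, and 14 histone windows had no single-copy word at all. Among the 72 genes there were 51 distinct coding sequences and 17 distinct proteins, and 35 genes shared their coding sequence exactly with another. Whether reads with several matches were kept before peak calling is a detail that the sources used here do not give.

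Bound and unbound histone genes differed in single-copy share. The median was 93.5% for the 14 bound genes, 71.6% for the 15 unbound genes with a relaxed summit and 4.14% for the 43 with none. The ranges overlapped, since the bound gene his-34 had 41.6% and his-71, with no pooled summit, had 99.9%. The 10 peaks themselves were 91.3 to 100% single-copy. No replicate-based test applies to these shares, which are properties of the genome sequence.

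**Figure D3:**
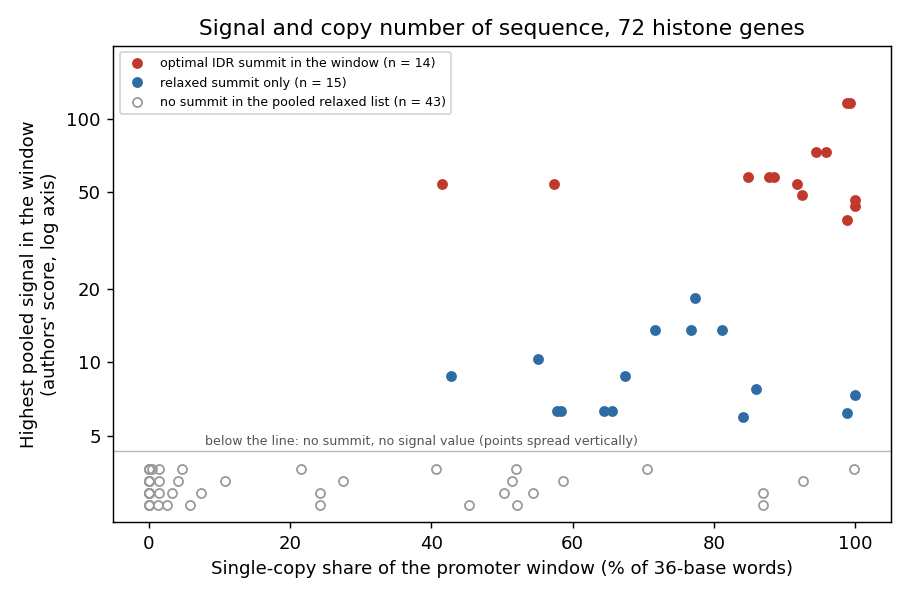
Each point is 1 of the 72 histone genes, with the single-copy share of its promoter window (percent of 36-base words) on the x axis and the highest pooled signal in the window (the authors' score, log axis) on the y axis. Genes with no pooled summit have no signal and stand below the grey line, spread vertically only to keep them apart, and they crowd near 0% while the bound genes lie between 41.6 and 100%.

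Split by single-copy share, at cut points of 50 and 90% chosen in the course of the work, the histone genes stood apart from all genes mainly where their sequence is single-copy. With at least 90% single-copy sequence, 9 of 13 histone genes were bound (69.2%, interval 42.4 to 87.3%), against 10.6% of all genes in that range. From 50 to 90%, 4 of 25 were bound (16%), against 5.02%. Under 50%, 1 of 34 was bound (2.94%), against 1.33%, and that gene was his-34, whose peak lies between his-31 and his-32. The 4 unbound genes in the top range were his-69, his-70, his-71 and his-74, all H3 genes outside the long clusters. The 9 bound genes of that range were not independent, since his-67 with his-68, and his-35 with his-37, shared a peak. The gene his-41 was reached only by the peak beside mdf-1. The interval counts each gene as separate.

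Relaxed summits followed a similar order. They lay in 11 of 13 histone windows with at least 90% single-copy sequence (84.6%), against 55.7% of all genes, and in 16 of 25 windows from 50 to 90% (64%), against 35.8%. Under 50% they lay in 2 of 34 (5.88%, interval 1.63 to 19.1%), against 8.67%. By count of genes, histone genes thus lay above all genes in the upper and middle ranges, while in the lowest the interval held the share of all genes. Neighbours share summits, as his-8, his-6, his-5 and his-39 of the middle range share that of rank 22957. The genes are therefore not independent, and the intervals do not allow for this. The part of repeated sequence in the missing peaks was not tested, because peak lists do not show how reads were placed.

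**Figure D4:**
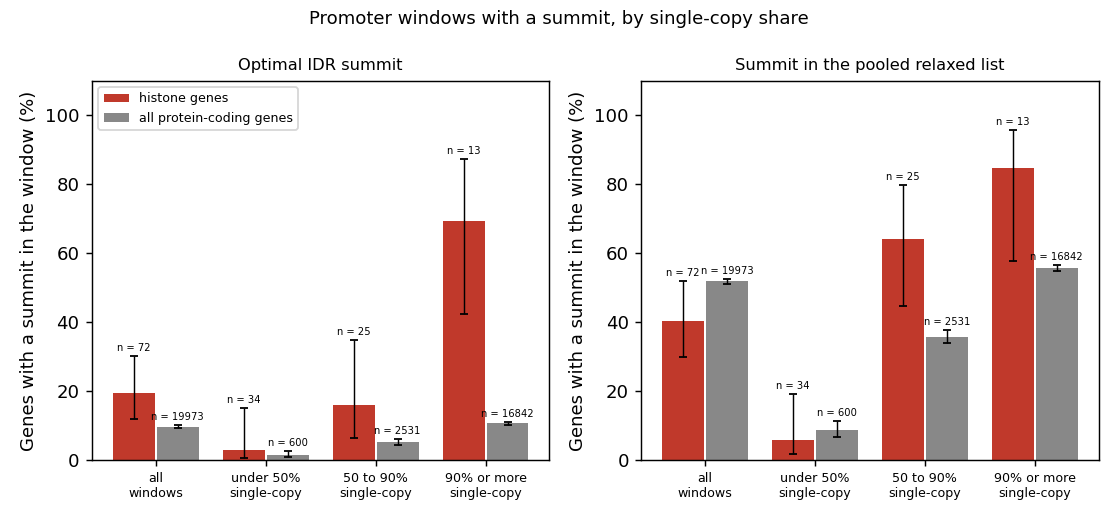
Percentage of promoter windows with a summit, for histone genes (left bar of each pair) and all protein-coding genes (right bar), over all windows and by single-copy share, with 95% Wilson intervals for counting error and n above each bar. In the left panel, optimal IDR summits lie in 69.2% of histone windows with at least 90% single-copy sequence, against 10.6% of all such windows, and in the right panel relaxed summits lie in 84.6% against 55.7%.

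Intervals between back-to-back starts held 4 of the 10 peaks. Pairs of neighbouring genes with opposed starts at most 500 bp apart numbered 31 among histone genes and 917 among all genes. The median distance between the starts was 259 bp (228 to 369 bp) in histone pairs and 284 bp (1 to 500 bp) in all pairs. In 17 of the 31 histone intervals no 36-base word was single-copy, as in 27 of all 917, and 16 histone intervals occurred more than once as a whole. An IDR summit lay between the starts of 4 of 31 histone pairs (12.9%), against 17.8% of all pairs, and a relaxed summit in 9 of 31 (29.0%), against 41.4%.

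In the 8 histone pairs whose interval was at least 90% single-copy, an IDR summit lay between the starts of 4 (50%, interval 21.5 to 78.5%), against 19.6% of 826 such pairs in the genome. A relaxed summit lay between the starts of 7 of the 8 (87.5%), against 45.3%. The 4 pairs with an IDR summit were his-67 with his-68, his-61 with his-62, his-60 with his-59 and his-31 with his-32, and each also had a summit among the strongest 2197 of both replicates. In the last 3 of these the summit lay 7, 8.5 and 6 bp from the midpoint of the interval, and in the first 78.5 bp. Relaxed summits between his-4 and his-3 and between his-2 and his-1 also stood close to the midpoint, at -9.5 and -10.5 bp, where a negative distance is towards the lower coordinate. All these distances are those of pooled summits. The replicate 1 and 2 summits lay 25 and -2 bp from the pooled summit at his-61 with his-62. At his-60 with his-59 they lay 0 and -44 bp from it, and at his-31 with his-32 -10 and 9 bp. The single-copy pair with no summit in any list was his-38 with his-40.

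The sequences below show an interval that occurs at more than 1 locus, and the single-copy interval that had no summit. The interval between his-50 (H4) and his-49 (H3) on chromosome V is identical, base for base over 238 bp, to that between his-28 (H4) and his-27 (H3) at chrV:8889800-8890037. Source, strand and the meaning of capitals are as above.
his-50 and his-49, chrV:8847705-8847942: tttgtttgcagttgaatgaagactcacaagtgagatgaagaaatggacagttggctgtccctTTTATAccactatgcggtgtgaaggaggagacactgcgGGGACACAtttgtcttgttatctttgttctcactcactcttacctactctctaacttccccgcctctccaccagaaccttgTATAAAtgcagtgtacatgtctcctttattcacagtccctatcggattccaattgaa
his-38 and his-40, chrX:7309876-7310109: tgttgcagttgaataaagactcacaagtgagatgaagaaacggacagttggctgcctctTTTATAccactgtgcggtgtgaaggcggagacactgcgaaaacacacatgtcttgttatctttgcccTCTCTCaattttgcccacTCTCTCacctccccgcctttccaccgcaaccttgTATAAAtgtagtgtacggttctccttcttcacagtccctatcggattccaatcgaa
The first interval holds TGTGTCCC as GGGACACA and TATAAA on both strands, and the second holds TATAAA and GAGAGA but not TGTGTCCC.

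Over the 31 histone intervals, TGTGTCCC lay within 100 bp of the midpoint in 20 (64.5%), against 21 of all 917 pairs (2.29%), so that 20 of the 21 were histone pairs. Among the 8 single-copy histone pairs it lay in 5, and 4 of these were the pairs with an IDR summit, the fifth being his-4 with his-3. The word was chosen after the sequences at these peaks had been read, so its presence in the 4 pairs is no independent support. TATAAA lay in 19 of 31 (61.3%), against 27.9%, and GAGAGA in 16 of 31 (51.6%), against 16.8%. Since 16 of the 31 intervals occur more than once as a whole, these shares count some sequences several times. Within the same 100 bp of the midpoint, TGATNNAT and TAATTA lay in 0 of 31, against 15.3 and 12.6% of all pairs. TGATNNAT was not absent from the intervals as a whole. It stood further from the midpoint between his-16 and his-15, between his-12 and his-11, and between his-44 and his-43.

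Genes that encode other histones or handle histones, and whose names do not start with his-, were counted beside them from a list of 27. Bound were 7 (25.9%), against 9.59% of all genes, and 8 and 9 in replicates 1 and 2 alone. The genes lin-53 and rba-1, which encode histone-binding proteins with WD40 repeats, shared 1 peak with a signal of 159 at rank 75, and ranks of 65 and 84 in replicates 1 and 2. The gene hat-1, for a histone acetyltransferase, had a signal of 108 at rank 162, and htz-1, the gene for the variant H2A.Z, had 79.7 at rank 327. The linker histone gene hil-7 had 55.2 at rank 704 and the nucleosome assembly gene nap-1 had 45.6 at rank 1038. The gene nasp-2, of the NASP family of histone chaperones, had 44.7 at rank 1083, but its peak ranked 258 in replicate 1 and 19936 in replicate 2. The other 20 genes, among them the remaining linker histone genes, the centromeric H3 genes hcp-3 and cpar-1 and the stem-loop binding protein gene cdl-1, were not bound. Of these, the histone chaperone gene unc-85 had a summit among the strongest 2197 of both replicates but none in the IDR list.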

How the data were processed

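Each value comes from peak lists on ce11 that the authors deposited for 2 biological replicates of 1 group. Per the text records deposited beside the samples, relaxed lists of peaks and background came from each replicate's alignment and from the pooled alignments, each with a control alignment, and the optimal list was derived from these by IDR. Each peak carries the authors' signal, a score of unstated scale that was used only to describe and rank peaks within a list. The deposited −log10 q-value has a shared ceiling and was not used for ranking. The sources used here do not give the aligner, peak caller, read length, IDR threshold or treatment of reads with several matches. The lists hold no read counts, so depth is unknown, and 95% Wilson intervals cover counting error only.

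Genes came from Ensembl release 115. Ensembl gives the 72 genes 50 names, so RefSeq symbols were matched by WormBase gene ID, which renamed 22. All genes serve as the background and include the histone genes. Replicate ranks come from the strongest peak that overlaps by at least 1 bp. No enrichment test was run. The members, lists and cut points were chosen with earlier results of these data known. Named were all bound histone genes, all isolated ones, the replacement and variant genes, and the gene with the highest relaxed signal in each other locus. Alternatives were other windows, peak sets, joining distances, overlaps and word lengths, and each replicate left out. Analyses used pandas 2.3.3, numpy 2.4.6 and scipy 1.17.1 under Python 3.11.15, and figures used matplotlib 3.10.9. The code for promoter windows, nearest starts, loci and single-copy words was tested on simulated data, and the rest was not.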

Additional observations from a re-analysis of the deposited data

How the results depend on the processing

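The number of bound histone genes was 14 (19.4%, against 9.59% of all genes). It ran from 11 with a window of 1000 bp upstream (15.3%, against 7.32%) to 16 with 5000 bp (22.2%, against 15.1%). It was 12 with the 1098 strongest IDR peaks (16.7%, against 5.36%). With each peak assigned to the nearest start only it was 7 (9.72%, against 9.43%), close to the share of all genes. Leaving out each replicate gave 13 to 14 genes (18.1 to 19.4%, against 9.23 to 9.37%), 6 loci and 8 to 11 distinct peaks. The number of loci with a bound gene was 6 and ran from 5 to 7, and it was 6 whether starts within 5000, 10000 or 20000 bp were joined. The number of distinct peaks was 10 and fell to 6 with the 1098 strongest IDR peaks, which left out, by construction, the peaks of lower signal. With 50% overlap in place of 1 bp, 8 peaks were again among the strongest 2197 in both replicates. The median single-copy share was 53.1% with 50-base words in place of 51.7%. No paired analysis was possible because there was 1 group. Depth is unknown, 13 genes or 8 pairs give wide intervals, and genes of 1 locus share peaks, so that genes are not independent of one another.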
